A study of Mus musculus with 8 samples.

Results

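The pyruvate dehydrogenase kinases and phosphatases were followed in C2C12 cells, a mouse myoblast line whose cells fuse into myotubes once serum is lowered. The set holds 7 genes: the kinases Pdk1, Pdk2, Pdk3 and Pdk4, the catalytic phosphatase subunits Pdp1 and Pdp2, and Pdha1, which encodes the enzyme subunit they act on. Its members were all probe sets annotated with exactly 1 of these symbols, 12 of the 45037 tested probe sets and 7 of 18193 genes. Pdk1 had 4 probe sets, Pdp1 and Pdha1 had 2 each, and Pdk2, Pdk3, Pdk4 and Pdp2 had 1 each. The gene identifiers of all 7 matched RefSeq, which matters for Pdk1, since that name is also an older synonym of Pdpk1.

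Trp53inp2 encodes DOR, and 4 cultures received a lentivirus with DOR siRNA, against 4 that received one with scrambled RNA. Both groups were exposed to virus at an moi of 100, expanded, and sorted for GFP to 93 to 99% positive cells, and then spent 4 days in 5% horse serum, according to the protocols in the labels. The samples are described there as confluent myoblasts and biological replicates, without saying how the cultures were derived, and the sample descriptions carry a further mark whose meaning is not given, so the stage at harvest is not settled and p-values measure the spread between these cultures only. RNA was read on 1-colour Affymetrix arrays, and values are log2 RMA expression per probe set. Array medians ran from 6.14 to 6.20, and correlations between arrays ran from 0.988 to 0.997. The brighter probe set of Trp53inp2 read 9.46, 9.93, 9.49 and 9.18 in the DOR siRNA arrays, against 11.50, 11.55, 11.43 and 10.92 in the scrambled arrays (log2 difference -1.83 ± 0.17 SE, limma adjusted p = 0.00087). The dimmer probe set of Trp53inp2 did not pass (0.14 ± 0.08, limma adjusted p = 0.519). All 10 muscle line markers measured, Myod1, Myog and Des among them, read above the median of all probe sets (6.18) on all 8 arrays. Below that median on all 8 arrays were 4 of 6 adipocyte genes (Adipoq and Fabp4 among them), 2 of 4 osteoblast genes (Ibsp and Dmp1), 3 of 6 leukocyte genes (Ptprc, Cd68 and Itgam) and 5 of 6 endothelial genes (Pecam1 and Cdh5 among them). Cebpa, Retn, Alpl, Csf1r and Cd3e of these lists read above it on all 8 arrays.

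The pyruvate dehydrogenase complex sits in the mitochondrial matrix and turns pyruvate into acetyl-CoA, the step that commits carbohydrate carbon to oxidation. The kinases phosphorylate serines of the E1 alpha subunit, made by Pdha1, and so switch the complex off, and the phosphatases remove those groups and switch it back on. In skeletal muscle Pdk2 and Pdk4 are known as the main kinases, Pdk4 being raised by fasting, fatty acids and glucocorticoids, while Pdk1 is known as a target of hypoxia-inducible factor. All of this concerns protein activity as well as transcript level, and the arrays read transcripts only.

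The start-site regions of the 4 kinases are shown because the kinases are separate genes, each with its own start site. Sequences are from RefSeq (GRCm38.p6), read 5′ to 3′ on the strand of the gene, from 250 bases before to 50 bases after the annotated start. Capitals mark ACGTG or GCGTG on either strand, the core letters bound by hypoxia-inducible factor.
Pdk1 promoter, chr2:71872974-71873273, plus strand: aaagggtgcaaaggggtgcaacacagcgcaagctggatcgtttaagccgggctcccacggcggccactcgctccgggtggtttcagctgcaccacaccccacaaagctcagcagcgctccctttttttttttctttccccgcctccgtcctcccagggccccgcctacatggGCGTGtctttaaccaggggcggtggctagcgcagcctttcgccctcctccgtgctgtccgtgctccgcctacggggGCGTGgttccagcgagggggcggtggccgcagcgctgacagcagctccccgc
Pdk4 promoter, chr6:5496229-5496528, minus strand: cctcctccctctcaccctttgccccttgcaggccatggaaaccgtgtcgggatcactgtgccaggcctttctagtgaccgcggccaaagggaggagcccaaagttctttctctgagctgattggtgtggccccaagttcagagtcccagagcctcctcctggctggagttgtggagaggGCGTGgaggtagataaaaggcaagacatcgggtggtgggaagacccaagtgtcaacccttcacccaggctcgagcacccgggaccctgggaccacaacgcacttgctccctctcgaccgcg
Pdk3 promoter, chrX:93832101-93832400, minus strand: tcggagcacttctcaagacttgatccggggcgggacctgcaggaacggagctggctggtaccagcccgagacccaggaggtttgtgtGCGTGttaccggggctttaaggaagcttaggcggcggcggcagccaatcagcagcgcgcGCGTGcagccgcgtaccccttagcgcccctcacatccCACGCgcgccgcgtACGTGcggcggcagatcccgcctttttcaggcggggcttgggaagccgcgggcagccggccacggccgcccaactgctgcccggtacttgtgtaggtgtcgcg
Pdk2 promoter, chr11:95041322-95041621, minus strand: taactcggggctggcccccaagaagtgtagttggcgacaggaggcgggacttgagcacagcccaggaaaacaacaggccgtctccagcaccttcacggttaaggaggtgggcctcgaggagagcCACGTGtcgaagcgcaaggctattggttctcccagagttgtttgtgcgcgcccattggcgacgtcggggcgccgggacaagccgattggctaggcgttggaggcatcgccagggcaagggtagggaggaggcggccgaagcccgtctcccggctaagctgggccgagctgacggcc
The core letters occurred 2 times in the region shown for Pdk1, 1 time for Pdk4, 4 times for Pdk3 and 2 times for Pdk2, where both matches overlap in 1 palindrome. At least 1 match was present in 43.8% of 32851 promoter regions of the same length, so the matches describe these sequences and mark no site of binding. The half-site AGGTCA of nuclear receptors, thyroid hormone receptor included, was in none of these 4 regions on either strand. It was in 16.3% of all promoter regions, so its absence from 4 describes these sequences only. RefSeq lists another start for Pdk1 and another for Pdk2, and neither of those regions holds the core letters. Of the 7 genes, 6 had a promoter entry, and the regions of Pdha1 and Pdp2, not shown, held the core letters 4 and 2 times.

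Pdk1 was the member that differed between the groups. Its brightest probe set, 1423748_at, read 9.11, 9.24, 9.06 and 8.94 in the DOR siRNA arrays, against 8.58, 8.79, 8.30 and 8.64 in the scrambled arrays. Every DOR siRNA value lay above every scrambled value. The mean was 9.09 ± 0.13 after DOR siRNA and 8.58 ± 0.21 with scrambled RNA (SD, n = 4 each), a rise of 0.51 ± 0.11 log2 units or 1.42-fold (95% interval 1.20 to 1.68; limma adjusted p = 0.0331). This was the single call among the 12 member probe sets, in a comparison where 3.22% of all probe sets were called, 2.04% higher and 1.19% lower. By the brightest probe set of each gene it was 1 of 7, against 4.56% of all genes. With a set of this size 1 call says nothing about the set as a whole. The call depended on single arrays: it was lost without DOR siRNA 1, 2 or 3 or without scrambled 1 or 3 (limma adjusted p between 0.0612 and 0.0952). Those fits, in that order, called 821, 1354, 615, 627 and 608 of all probe sets, against 1452 with every array. The Pdk1 difference stayed between 0.41 and 0.58 whichever array was left out.

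The other probe sets of Pdk1 read in the same direction. Probe set 1423747_a_at, annotated with the same source sequence as the brightest, read 8.82, 9.15, 8.75 and 8.63 in the DOR siRNA arrays, against 8.37, 8.42, 7.99 and 8.50 in the scrambled arrays. Here too the groups did not overlap, which held for 2 of the 12 member probe sets and for 9.85% of all probe sets. Its difference was 0.51 ± 0.13, as large as that of the brightest probe set, and did not pass by group alone (limma adjusted p = 0.0639). With 1 array left out it passed without scrambled 4 (0.57, limma adjusted p = 0.0442). Probe set 1435836_at read 8.34, 8.84, 8.21 and 8.10 after DOR siRNA, against 8.11, 8.41, 7.78 and 7.69 with scrambled RNA. The ranges overlapped, array 2 being high in both groups and arrays 3 and 4 low in both, and its difference was 0.38 ± 0.18 (limma adjusted p = 0.365). Probe set 1434974_at averaged 4.72 after DOR siRNA and 4.52 with scrambled RNA, below the all-probe-set median of 6.18, and nothing showed it to be above background (0.19 ± 0.16, limma adjusted p = 0.654).

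Comparing within replicate numbers left the differences of the Pdk1 probe sets as they were and made their SEs smaller. Between same-numbered arrays 1423748_at was higher after DOR siRNA by 0.53, 0.45, 0.75 and 0.29 for numbers 1 to 4. For 1435836_at the same differences were 0.23, 0.44, 0.43 and 0.41, all positive and of like size. With the replicate number as a block, 3 of the 12 member probe sets passed, all of Pdk1 and all higher, against 6.28% of all probe sets in that fit. These were 1423748_at (limma adjusted p = 0.0141), 1423747_a_at (0.0284) and 1435836_at (0.0226). The mean over the 4 probe sets of Pdk1 gave a smaller difference, 0.40 ± 0.14, that did not pass without the block (limma adjusted p = 0.126).

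**Figure D1:**
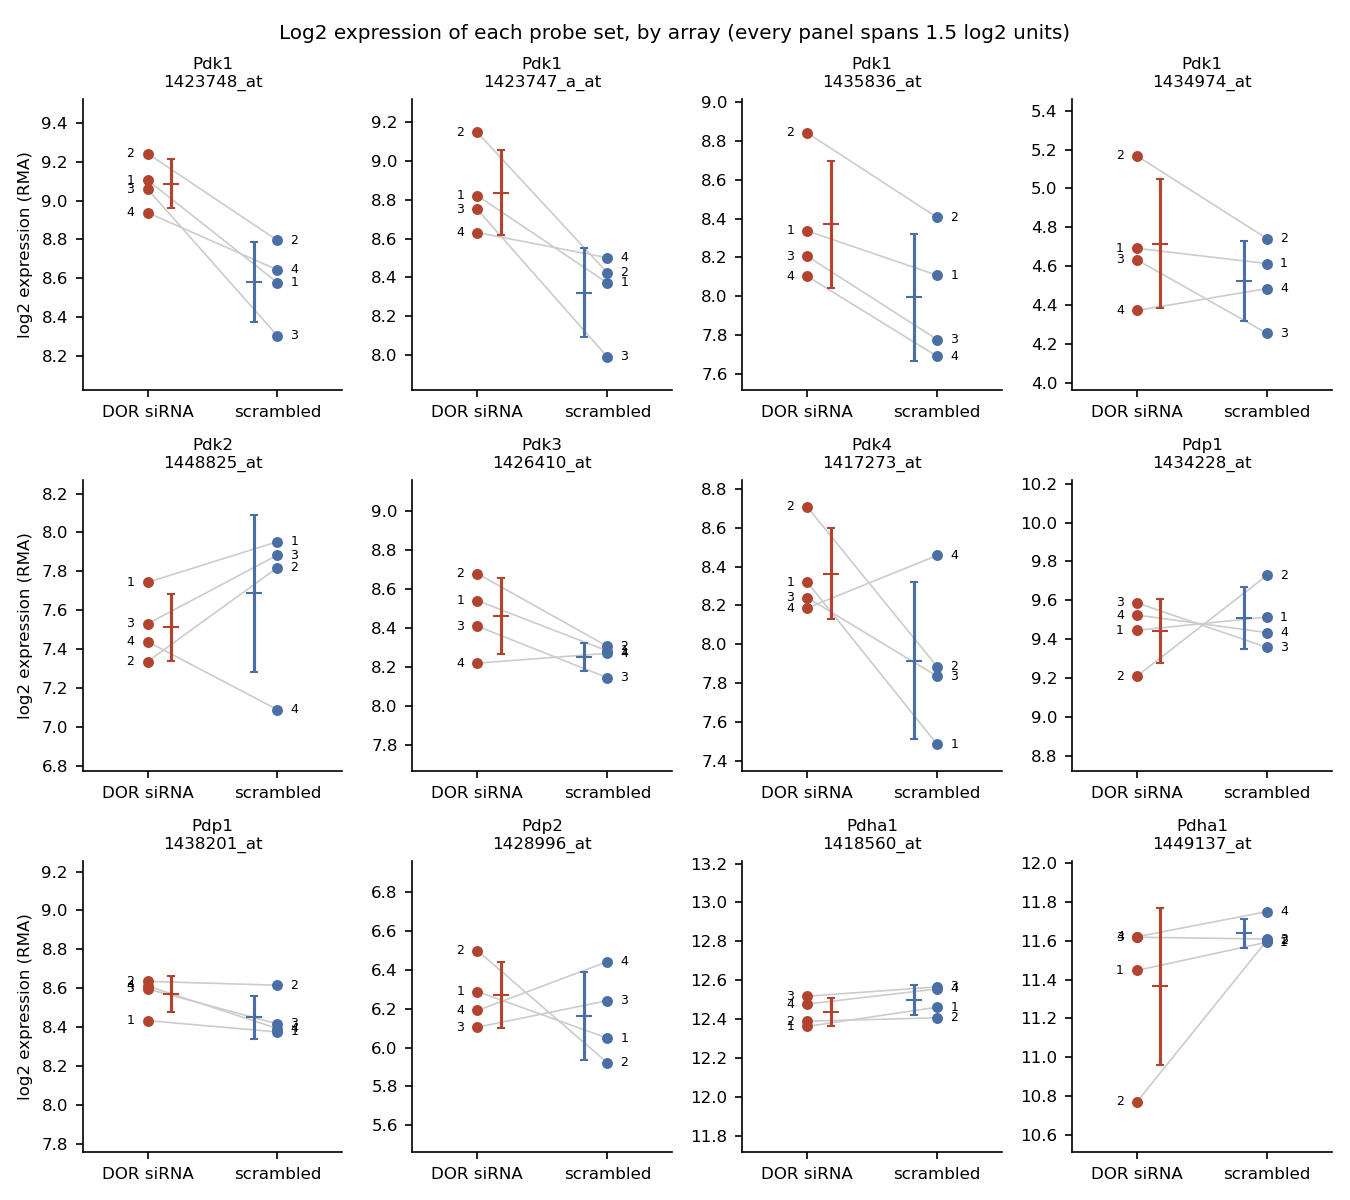
Log2 RMA expression of the 12 probe sets on each array, with DOR siRNA at the left and scrambled at the right of each panel. Points are arrays with their replicate number, grey lines join arrays of the same number, bars are the mean ± SD (n = 4), and every panel spans the same 1.5 log2 units. The 4 DOR siRNA points of Pdk1 1423748_at all lie above the 4 scrambled points, while scrambled 4 is the lowest point of Pdk2 (7.09), the highest of its group for Pdk4 (8.46) and the highest for Pdha1 1449137_at (11.75).

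Pdk4, the fasting-responsive kinase of muscle, had a difference close in size to that of Pdk1 but did not pass. It read 8.32, 8.71, 8.24 and 8.19 in the DOR siRNA arrays, against 7.48, 7.88, 7.84 and 8.46 in the scrambled arrays. Scrambled 4 lay above 3 of the DOR siRNA arrays, and the other 3 scrambled arrays lay below all of them. The difference was 0.45 ± 0.18 log2 units (95% interval 0.04 to 0.85, before any adjustment for the number of probe sets; limma adjusted p = 0.261). Without scrambled 4 it was 0.63 and passed (limma adjusted p = 0.0319), in a fit that called 5.13% of all probe sets. Within replicate numbers Pdk4 was higher after DOR siRNA by 0.84, 0.82 and 0.40 for numbers 1 to 3, and for number 4 the difference was -0.27. Leaving out other arrays moved the difference of Pdk4 both ways. It was lowest without scrambled 1 (0.30, limma adjusted p = 0.55) and without DOR siRNA 2 (0.33, 0.425). Without DOR siRNA 1, 3 or 4 it was higher, at 0.46, 0.49 and 0.51 (limma adjusted p = 0.362, 0.341 and 0.259). With the replicate block Pdk4 did not pass (limma adjusted p = 0.175). Its call was thus present only when scrambled 4 was left out.

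Pdk2, the kinase found most widely across tissues, was the kinase whose mean was lower after DOR siRNA, and it did not pass. Its values were 7.74, 7.34, 7.53 and 7.44 in the DOR siRNA arrays, against 7.95, 7.82, 7.88 and 7.09 in the scrambled arrays. Again scrambled 4 stood away from its group, this time as the lowest of all 8 values, and the other 3 scrambled arrays lay above all DOR siRNA arrays. The difference was -0.17 ± 0.17 (95% interval -0.56 to 0.21, limma adjusted p = 0.733). Without scrambled 4 it was -0.37 and still did not pass (limma adjusted p = 0.0706). The same control array was thus highest of its group for Pdk4 and lowest for Pdk2.

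Pdk3, an X-linked kinase known for its high activity and weak inhibition by pyruvate, read 8.54, 8.68, 8.41 and 8.22 in the DOR siRNA arrays, against 8.28, 8.31, 8.14 and 8.27 in the scrambled arrays. Of the DOR siRNA values 3 lay above all scrambled values, and DOR siRNA 4 lay among them. The scrambled arrays were close together (SD 0.07), the DOR siRNA arrays less so (SD 0.20). The difference was 0.21 ± 0.10 (95% interval -0.01 to 0.43, limma adjusted p = 0.35) and did not pass with the replicate block either (limma adjusted p = 0.228).

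**Figure D2:**
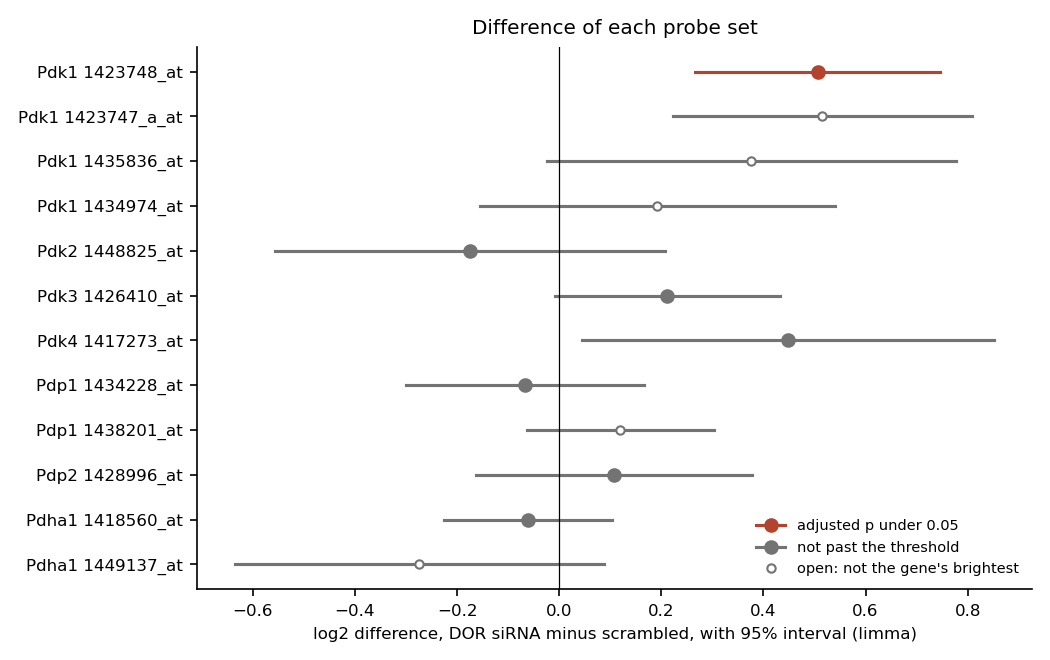
Log2 difference of each of the 12 probe sets, DOR siRNA minus scrambled, with its 95% interval from limma before adjustment for the number of probe sets. Filled points are the brightest probe set of a gene, open points its other probe sets, and the single red one, Pdk1 1423748_at at 0.51, passed the threshold of adjusted p under 0.05.

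The phosphatase transcripts did not pass in either direction. Pdp1, the calcium-stimulated phosphatase of muscle, read 9.45, 9.21, 9.59 and 9.52 in the DOR siRNA arrays by its brighter probe set 1434228_at, against 9.51, 9.73, 9.36 and 9.43 in the scrambled arrays. The ranges overlapped, with DOR siRNA 2 the lowest and scrambled 2 the highest of all 8 values, and the difference was -0.07 ± 0.11, which is 0.95-fold with a 95% interval of 0.81 to 1.12 (limma adjusted p = 0.859). Its other probe set, 1438201_at, had a difference of the opposite sign, 0.12 ± 0.08 (limma adjusted p = 0.58), and was higher after DOR siRNA in 4 of 4 replicate numbers by 0.02 to 0.22. Pdp2, the insulin-responsive phosphatase of fat tissue, read 6.29, 6.50, 6.10 and 6.19 after DOR siRNA, against 6.05, 5.92, 6.24 and 6.44 with scrambled RNA. These levels lie around the all-probe-set median, and the difference was 0.11 ± 0.12 (limma adjusted p = 0.778). The 95% interval for Pdp2 was 0.89-fold to 1.30-fold.

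Pdha1, the substrate of these enzymes, was tightly measured by its brighter probe set only. The SD over the DOR siRNA arrays was 0.07 for that probe set and 0.40 for the other. By its brighter probe set 1418560_at it read 12.36, 12.39, 12.52 and 12.48 in the DOR siRNA arrays, against 12.46, 12.41, 12.57 and 12.55 in the scrambled arrays. Each DOR siRNA array was slightly lower than its same-numbered partner, by at most 0.10, and the difference of -0.06 ± 0.07 did not pass (0.96-fold, 95% interval 0.86 to 1.07; limma adjusted p = 0.8). The other probe set, 1449137_at, carries the same source sequence and read 11.45, 10.77, 11.62 and 11.62 after DOR siRNA, against 11.59, 11.60, 11.61 and 11.75 with scrambled RNA. DOR siRNA 2 was 0.83 under its same-numbered partner there, which did not recur in 1418560_at. The difference of 1449137_at was -0.27 ± 0.16 (limma adjusted p = 0.497), and without DOR siRNA 2 it was -0.08.

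Array DOR siRNA 2 held the highest value of its group in 8 of the 12 member probe sets, those of Pdk1, Pdk3 and Pdk4 among them. Leaving it out lowered the difference of Pdk1 1423748_at to 0.45 (limma adjusted p = 0.0612), that of Pdk4 to 0.33 (0.425) and that of Pdk3 to 0.14 (0.535). Over the 12 member probe sets the median difference was 0.16, with 8 positive and 4 negative, beside a median of 0.00 over all probe sets, and 4 of the positive ones belong to Pdk1 alone. By the brightest probe set of each gene the median was 0.11 over the 7 members and 0.02 over all genes.

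**Figure D3:**
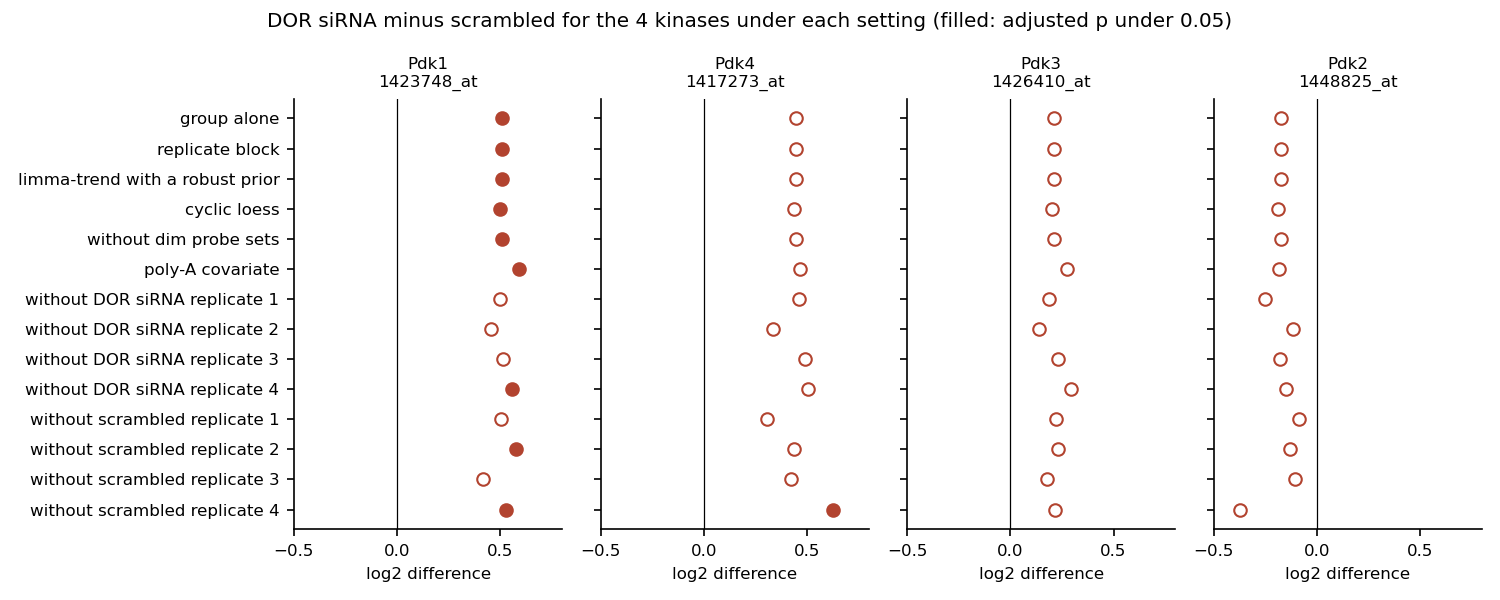
Log2 difference of the 4 kinases by their brightest probe set, DOR siRNA minus scrambled, under the comparison of groups alone, 5 other settings and each array left out in turn. Filled points have a limma adjusted p under 0.05. Pdk1 stays between 0.41 and 0.59 and is filled in 9 of 14 settings, Pdk4 is filled without scrambled 4 only, and Pdk3 and Pdk2 are filled in none.

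Markers of the state of the cells moved with the groups. Of 14 contractile genes 9 fell and 5 did not pass, and of 12 cell cycle genes 8 rose and 4 did not pass, against 1.45% of all genes called lower and 3.11% called higher. The summed level of the contractile genes on the linear scale ran from 88560 to 104400 in the DOR siRNA arrays and from 118800 to 138300 in the scrambled arrays. That of the cell cycle genes ran from 10200 to 12950 in the DOR siRNA arrays and from 7523 to 9438 in the scrambled arrays. With the replicate block 11 contractile and 10 cell cycle genes passed in those directions. That fit called more in general, 6.28% of all probe sets against 3.22% by group alone, and its share of genes was not computed. Of 10 muscle line markers 2 fell (3 fell and 1 rose with the block, with Ckm at a limma adjusted p of 0.00632 and Myf5, the one that rose, at 0.0436, both named after their values were seen), and their sum ran from 76690 to 88550 after DOR siRNA and from 95550 to 108400 with scrambled RNA. Among 6 adipocyte genes none passed by group alone, with sums of 386.4 to 646.3 after DOR siRNA and 255.9 to 327.6 with scrambled RNA, where Cebpa, named after its values were seen, differed by 0.91 ± 0.25 (limma adjusted p = 0.0803) and passed with the block (0.0217). The part of these shifts in the Pdk1 result was not tested, and in bulk RNA fewer cells of a kind and less RNA per cell cannot be told apart.

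The rest of the complex was not called. The list of 9 genes covered the other subunits, the lipoyl arm and Pdpr, the regulatory subunit of the phosphatase. None passed the limma test by group alone, against 4.56% of all genes, and 0 passed at an adjusted p under 0.05 with the block. In a list of this size a count of 0 says little. Of the 9 differences 8 were negative, with a median of -0.15 beside 0.02 over all genes. Pdpr, named after its values were seen, differed by -0.20 ± 0.10 (limma adjusted p = 0.402). The members with the smallest p were Nfu1, an iron-sulfur carrier needed for lipoate synthesis (-0.28 ± 0.13, limma adjusted p = 0.358), and Dld, the shared E3 dehydrogenase (-0.27 ± 0.12, limma adjusted p = 0.334). Among 5 genes of the related branched-chain complex none passed, a count that likewise says little, all differences being positive with a median of 0.11. Bckdhb, the E1 beta subunit, differed by 0.34 ± 0.11 (limma adjusted p = 0.153; 0.44 and 0.0405 without DOR siRNA 4) and Ppm1k, the phosphatase of that complex, by 0.17 ± 0.09 (limma adjusted p = 0.402). Bckdhb was below the all-probe-set median on all 8 arrays.

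Genes that bring pyruvate to the mitochondrion or send it elsewhere gave 1 call in 13, against 4.56% of all genes. It was Me1, the cytosolic malic enzyme that makes pyruvate and NADPH. It read 9.46 after DOR siRNA and 9.12 with scrambled RNA on average, a rise of 0.34 ± 0.08 (limma adjusted p = 0.0363), a call that, with 1 array left out, held only without scrambled 2 (limma adjusted p up to 0.116 otherwise). The other 12, which include the carrier subunit Mpc1 (-0.12 ± 0.10) and the lactate dehydrogenases Ldha (0.13 ± 0.07) and Ldhb (0.11 ± 0.09), all named after their values were seen, did not pass, and the median of the list was 0.05. With the replicate block Gpt2, a mitochondrial alanine transaminase named after its values were seen, also passed, downward (-0.51, limma adjusted p = 0.0237).

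Other known targets of hypoxia-inducible factor, the factor that acts on Pdk1, held 2 genes that rose and 18 that did not pass, of 20 measured, against 3.11% of all genes called higher. Pfkl, the liver-type phosphofructokinase of glycolysis, read on average 10.28 after DOR siRNA and 9.45 with scrambled RNA, a rise of 0.82 ± 0.09 (limma adjusted p = 0.00146), or 0.51 by the mean over its probe sets (0.00349). Hk1, the hexokinase that starts glycolysis in most tissues, read 10.55 after DOR siRNA and 10.05 with scrambled RNA, a rise of 0.50 ± 0.11 (limma adjusted p = 0.0295) that did not pass without scrambled 1, 2 or 3 or DOR siRNA 3 or 4 (up to 0.0946). The median difference was 0.19, with 13 positive and 7 negative. By all 43 probe sets of these genes 6 were called, all higher, against 2.04% of all probe sets. Of the 6, 2 belong to Slc2a1, the basal glucose transporter, whose brightest probe set did not pass (0.38 ± 0.11, limma adjusted p = 0.102). By the mean over its probe sets Slc2a1 did pass (0.39, limma adjusted p = 0.0273). With the replicate block, which called 6.28% of all probe sets, 3 genes rose and 1 fell, the added ones being Ndrg1 (0.54, limma adjusted p = 0.0261) and Hk2, the insulin-regulated hexokinase of muscle (-0.70, limma adjusted p = 0.0183). Slc2a1, Ndrg1 and Hk2 are named after their values were seen. Called genes in the list numbered 4 without scrambled 4 (5.13% of all probe sets called) and 1 without scrambled 1, 2 or 3 or DOR siRNA 3 or 4. The shares for the block and without scrambled 4 are over probe sets. The share over genes, higher by group alone (4.56% against 3.22%), was not computed for these fits.

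Targets of PPAR, FoxO and glucocorticoid receptor, the regulators known for Pdk4, moved in both directions. Of 16 measured, 2 rose, 3 fell and 11 did not pass, against 3.11% of all genes called higher and 1.45% lower, and the median was -0.08. Cpt1a, which admits fatty acids to mitochondria, rose by 0.52 ± 0.09 (limma adjusted p = 0.0107), and Plin2, a coat protein of lipid droplets, rose by 0.45 ± 0.08 (limma adjusted p = 0.014). Cd36, a fatty acid transporter, fell by 1.05 ± 0.17 (limma adjusted p = 0.00916), with 8.16 on average after DOR siRNA and 9.20 with scrambled RNA. The other 2 that fell, named after their values were seen, were Fabp3, a fatty acid binding protein of muscle (-0.74 ± 0.17, limma adjusted p = 0.041), and Trim63, a ubiquitin ligase of atrophy (-0.79 ± 0.18, limma adjusted p = 0.0382). Fabp3 by the mean over its probe sets differed by -0.41 and did not pass (limma adjusted p = 0.0502). With 1 array left out Fabp3 passed only without DOR siRNA 1 or scrambled 4 (up to 0.105 otherwise), and Trim63 only without DOR siRNA 2 or 4 or scrambled 4 (up to 0.116 otherwise). The list held 3 called genes without scrambled 1, 2 or 3 or without DOR siRNA 3.

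The regulators themselves were not called. None of 21 factors passed limma, against 4.56% of all genes, and their median difference was -0.01. In a list of this size a count of 0 says little. Egln3, a hydroxylase that marks hypoxia factors for degradation, differed by -0.44 ± 0.17 (limma adjusted p = 0.211) and passed with the replicate block (limma adjusted p = 0.0152). Foxo1, a forkhead factor restrained by insulin, differed by -0.33 ± 0.15 (limma adjusted p = 0.317), and passed without DOR siRNA 2 (-0.49, limma adjusted p = 0.024). Hif1a itself, named after its values were seen, differed by 0.18 ± 0.09 (limma adjusted p = 0.402).

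**Figure D4:**
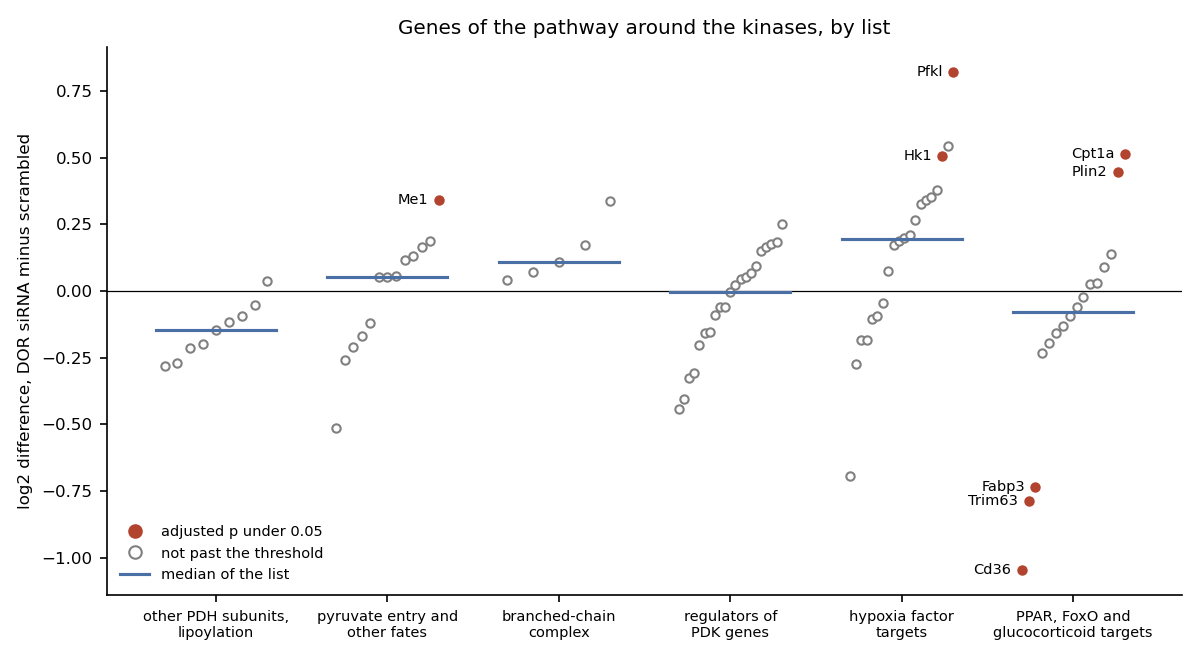
Log2 difference of each gene in the 6 lists around the kinases, DOR siRNA minus scrambled, by the brightest probe set, with genes ordered by size within a list. Filled points passed the limma test and are named, open points did not, and horizontal lines are the list medians. The filled points are Me1, Hk1, Pfkl, Cpt1a and Plin2 above 0 and Fabp3, Trim63 and Cd36 below 0.

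The genes whose levels followed each kinase most closely over the 8 arrays were found among 11267 genes at or above the median level. For Pdk1 they were Cnrip1, a partner of cannabinoid receptor (Pearson r = 0.977), and Ndrg2 (r = 0.974), which rose by 0.97 ± 0.15 (limma adjusted p = 0.00931), while Cnrip1 did not pass (0.41 ± 0.10, limma adjusted p = 0.0563). For Pdk4 they were Nuak2, a kinase related to AMPK (r = 0.981), and B3galnt1 (r = 0.968). For Pdk3 they were Nkain1 (r = 0.986) and the potassium channel Kcnn4 (r = 0.977), and for Pdk2 Rpusd3 (r = 0.979) and Spout1 (r = 0.933). None of the genes found for Pdk2, Pdk3 or Pdk4 passed the limma test, with adjusted p between 0.0606 and 0.866. These coefficients are descriptions: they are the highest of many over few arrays, and the arrays share their group and their normalization.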

How the data were processed

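The deposited values are log2 expression, which the authors computed by RMA (background correction, quantile normalization and summary), per the submitters' processing notes, from 25 ng of amplified RNA per culture, per the labels' protocols. The version of RMA is not given in the sources used here. Quantile normalization hides a shift common to all transcripts, and small differences of dim probe sets are compressed. The number of arrays limits the precision.

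Of 45101 probe sets, 64 Affymetrix controls were left out. Probe sets were named by the platform annotation: 34945 had 1 symbol, 932 several and 9160 none. A gene is represented by its probe set of highest mean. The test was limma 3.58.1 (lmFit, eBayes; R 4.3.3) with the group as the only term, two-sided, with Benjamini-Hochberg adjustment over all 45037 probe sets and a threshold of 0.05. A difference is the DOR siRNA mean less the scrambled mean in log2 units, ± the model's SE. Deviations from the group means correlated with r of 0.142 to 0.468 in the 4 same-numbered pairs, beside -0.394 to 0.265 between arrays of different numbers. These ranges overlap, and the titles number the biological replicates without stating a pairing. The number was therefore a block in a second fit only. Values or counts from that fit are given where they change a call, except for the genes most correlated with each kinase. On simulated arrays with 45037 probe sets and independent noise, 44.4% of changes of 0.5 log2 units and 88.6% of changes of 1 were recovered. Only 200 probe sets were changed per run, fewer than the 1452 called here. The adjustment was therefore stricter there, and these rates are not the power of the real comparison.

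The members and the gene lists were chosen with earlier results of these data known. Named genes are all members, Trp53inp2, up to 3 called genes with the smallest p in each of 6 lists (or the 2 with the smallest p), and the 2 genes most correlated with each kinase. Alternatives were a variance trend with a robust prior, the block, cyclic loess, a filter on dim probe sets, the mean of 12 poly-A control probe sets as a covariate, the mean over probe sets, and each array left out. Figures were drawn with matplotlib 3.10.9.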

Additional observations from a re-analysis of the deposited data

Results flagged for a closer look

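Of 26 groups of 4 arrays tested, 2 for each member probe set and for the brighter probe set of Trp53inp2, 2 held an array that stood far from the other 3, and chance gives about 1 in 20. Both were scrambled 4. Pdk2 read 7.09 there, the lowest of its group by 84.5% of the group's range. Pdha1 1449137_at read 11.75 there, the highest of its group by 89.7% of the range. The gap of Pdk4 on the same array did not reach that mark.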

How the results depend on the processing

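By group alone 1452 probe sets were called in all. The number was 2827 with the replicate block and 797 with the poly-A covariate, and 608 to 2310 when 1 array was left out. Member probe sets called were 3 with the block, 2 with the poly-A covariate, 2 without dim probe sets, and 0 to 3 when 1 array was left out. Pdk1 1423747_a_at passed with the block (0.51), with the poly-A covariate (0.62) and without dim probe sets (0.51, limma adjusted p = 0.0494), and its difference was 0.40 to 0.58 with 1 array left out. Pdk1 1435836_at passed with the block (0.38). Pdk1 by the mean over probe sets was 0.40 and did not pass. Pdk1 1423748_at ran from 0.41 to 0.58 and Pdk4 from 0.30 to 0.63 with 1 array left out. The block gave 2 calls among genes of pyruvate entry, 1 among regulators and 4 among hypoxia factor targets. The poly-A covariate gave 0 among genes of pyruvate entry, where Me1 lost its call (limma adjusted p = 0.0923), and 3 among PPAR and FoxO targets, and Hk1 lost its call (0.0625). With 1 array left out the calls were 0 to 1 for pyruvate entry, regulators and the branched-chain complex each, 1 to 4 for hypoxia factor targets and 3 to 5 for PPAR and FoxO targets. Apart from those Pdk1 probe sets and Egln3, the block changed no call among the members, Trp53inp2 and the genes named by the rule from the lists. The genes most correlated with each kinase were looked at by group alone. No called value changed sign, and the causes of these changes were not tested.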
